A study of Mus musculus with 6 samples.

Results

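The genes described here carry the names of proteins of the cytosolic ribosome, among them Rps4l, which is annotated as a transcribed processed pseudogene. They were taken by symbol from a table of 24063 symbols: names of the Rpl and Rps series, the stalk genes Rplp0 to Rplp2 and Rpsa, leaving out pseudogene names and the Rps6k kinases, with at least 10 reads summed over the 6 libraries. Of 84 symbols that fitted the name pattern, 83 had that many reads. Rpl10l, with 0 reads, fell just outside, and Rpl39l, with 25 reads, was the lowest inside, followed by Rpl3l with 84. After the filter on low counts 82 genes were tested, by name 33 of the small and 49 of the large subunit, and Rpl39l was not tested.

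Ribosomal proteins hold the ribosomal RNA in shape and form the sites where mRNA, tRNA and the translation factors bind. Their mRNAs are among the most abundant of dividing cells, and most begin with a cytosine followed by a run of pyrimidines, the 5′ terminal oligopyrimidine tract, through which the mTOR kinase controls their translation. Blood formation is sensitive to their dose, as loss of 1 copy of any of several of them causes Diamond-Blackfan anaemia in humans. A few have paralogues, second genes for nearly the same protein, whose use differs between tissues.

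RNA was sequenced from bone marrow cells of C57/BL6 mice sorted as LSK, the fraction that lacks lineage markers, carries Kit and Sca1 and contains the stem cells of blood together with their earliest progeny. The first group comprised 3 libraries labelled knockout, genotype Arid2fl/fl:MxCre+. The second comprised 3 control libraries, genotype MxCre+, whose titles give Arid2 as wild type (Arid2wt). Both groups carried the Cre transgene and were given pIpC at 6 to 8 weeks of age, and cells were taken 6 weeks later. pIpC is a double-stranded RNA analogue that raises interferon, and the interferon-responsive Mx1 promoter then drives Cre in blood cells and in other tissues. Arid2 encodes a DNA-binding subunit of the PBAF chromatin remodelling complex. The labels do not say which animals the libraries came from, and the p-values rest on the spread between libraries.

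The promoters of the genes that the comparison turned on are shown first, because most ribosomal protein mRNAs start within a pyrimidine run and their promoters often share short motifs. Each stretch holds 45 bases before and 15 bases from the start that RefSeq gives on GRCm38.p6, and capitals mark its longest run of C or T on the strand of the gene. Rpl22l1 was the gene that passed the test, Rpl22 is its paralogue, and Rplp0 had the highest fold change. Rpl28 and Rpl35, which hold a run across the start, were chosen after the sequences were seen. The regions are chr3:28805463-28805522 (plus strand), chr4:152325681-152325740 (plus), chr5:115559422-115559481 (plus), chr7:4792920-4792979 (plus) and chr2:39005117-39005176 (minus), in the order of the lines.
Rpl22l1: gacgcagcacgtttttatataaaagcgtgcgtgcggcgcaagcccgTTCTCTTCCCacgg
Rpl22: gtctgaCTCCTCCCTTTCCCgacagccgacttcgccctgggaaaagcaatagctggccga
Rplp0: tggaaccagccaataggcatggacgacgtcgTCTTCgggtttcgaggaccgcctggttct
Rpl28: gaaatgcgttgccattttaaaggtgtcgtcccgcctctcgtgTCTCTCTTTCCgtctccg
Rpl35: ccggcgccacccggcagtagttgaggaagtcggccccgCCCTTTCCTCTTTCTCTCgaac
The run of Rpl22l1 was 10 bases long and began at base 2 after the annotated start, counting the start as base 1. That of Rpl22 was 14 bases long and began 39 bases before the start in the shown window, the one with the longer run of 2 that RefSeq gives for the gene.

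Windows of 250 bases before to 50 bases from the start were at hand for 62 of the 83 genes, 74 windows in all. A pyrimidine run of at least 8 bases within 40 bases either side of the start was present in 70.3% of these 74 windows, against 29.3% of all 32851 mouse windows. The letters CCGGAAG, the core bound by ETS factors, occurred on either strand in 36.5% of the windows of ribosomal protein genes, against 8.9% of all windows. CTCTTTCC, a stretch of pyrimidines that can overlap the runs counted above, occurred in 17.6% against 3.1%. TATAAA, the core of the TATA box, went the other way in order, with 9.5% of these windows against 13.6% of all. Rpl22l1 held TATAAA on its own strand 28 bases before the start, and on the opposite strand 32 bases before it. These are matches of letters and say nothing of binding in LSK cells.

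Replicates 1 to 3 of the libraries labelled knockout had 19292944, 24989866 and 12408966 reads in the table, and control libraries 16585201, 28185678 and 13950708. The targeted gene was at the same level in both groups: Arid2 had 156 ± 6.2 CPM (counts scaled to the size of each library, with TMM factors) against 155.8 ± 8.5 in controls (SD, n = 3 each; edgeR adjusted p = 0.99). A gene-wide count cannot tell if the floxed exon was lost, and each direction given here therefore relies on the labels. Xist and Y-linked genes marked all 3 libraries labelled knockout and control replicate 2 as female, and control replicates 1 and 3 as male, so the controls came from more than 1 animal. The RNA also differed in markers of other cells: the summed level of 7 erythroblast markers, counting globin symbols with the same counts once, was 72.2 to 214 CPM in libraries labelled knockout and 17.8 to 40.4 CPM in controls (5 of 7 higher by edgeR). That of 11 neutrophil markers was 7164 to 9183 against 2965 to 5738 CPM in controls (4 of 11 higher), and that of 10 macrophage markers 2236 to 3040 against 1397 to 1658 CPM (6 of 10 higher). Markers of LSK cells summed to 1786 to 1888 CPM against 2219 to 2780 CPM in controls, with 7 of 12 lower. Among them Ly6a, the gene of Sca1, had a low level for a sort marker, at 13.5 ± 1.57 against 20.0 ± 2.10 CPM in controls. B cell markers summed to 24.8 to 28.5 against 34.7 to 38.99 CPM (1 of 7 tested lower), of which Cd79b made up 64.7%. T and NK cell markers summed to 251 to 318 against 210 to 278 CPM (1 of 8 tested lower), of which Nkg7 alone made up 83.2%. By the same test 3.85% of all 13679 symbols were higher and 4.58% lower. None of the listed markers found in the table was at 0 in all libraries. In bulk RNA, fewer cells of a type and less RNA per cell cannot be told apart, and the part of these markers in the results below was not tested.

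Few ribosomal protein genes passed the test between the groups. Of the 82 tested, 1 was lower in the libraries labelled knockout, Rpl22l1, and 0 were higher (edgeR quasi-likelihood test, adjusted p under 0.05 over all 13679 symbols). That is 1.22% of these genes, against 8.42% of all symbols tested, of which 4.58% were lower and 3.85% higher. At an unadjusted p under 0.05 the count was 2 of 82, Rpl22l1 and Rps4l, against 3405 of 13679 symbols (24.9%). DESeq2 and limma-voom each called 1 of the 82 as well. With a term for sex edgeR called 0 of the 82, against 43 of 13679 symbols (0.314%), a share at which 82 genes can give 0. The values of the 3 libraries labelled knockout lay wholly below the 3 controls for 3 genes and wholly above for 1, 4.88% of the 82, against 31.2% of all symbols tested, 16.1% below and 15.1% above.

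The log2 fold changes of the 82 genes had a median of -0.05, with quartiles of -0.09 and -0.01, and ran from -0.48 to 0.06. Over all symbols tested the median was 0.00, with quartiles of -0.14 and 0.15. Of the 82 values, 69 were negative and 13 positive, and 79 were smaller than 0.15 in size. The tilt to negative values changed with the libraries and with the model. Without knockout replicate 3 the median was 0.02 and 33 of 82 values were negative. Without knockout replicate 2 it was -0.11 and 80 were negative, and without control replicate 1 it was -0.02 and 53 were negative. With a term for sex and all libraries kept, the median was -0.01 and 46 of 82 values were negative. The parts of sex and of single libraries in the tilt were not tested. The median standard error of these genes was 0.083 on the log2 scale, against 0.110 over all symbols. Their median level was 512 CPM, against 33.2 CPM over all symbols, and the part of level in the smaller errors was not tested. The whole 95% confidence interval lay within 1.5-fold either way for 80 of the 82 genes (97.6%, against 63.1% of all symbols), all but Rps4l and Rpl3l. The plot of fold changes by subunit shows these intervals beside each other.

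**Figure D1:**
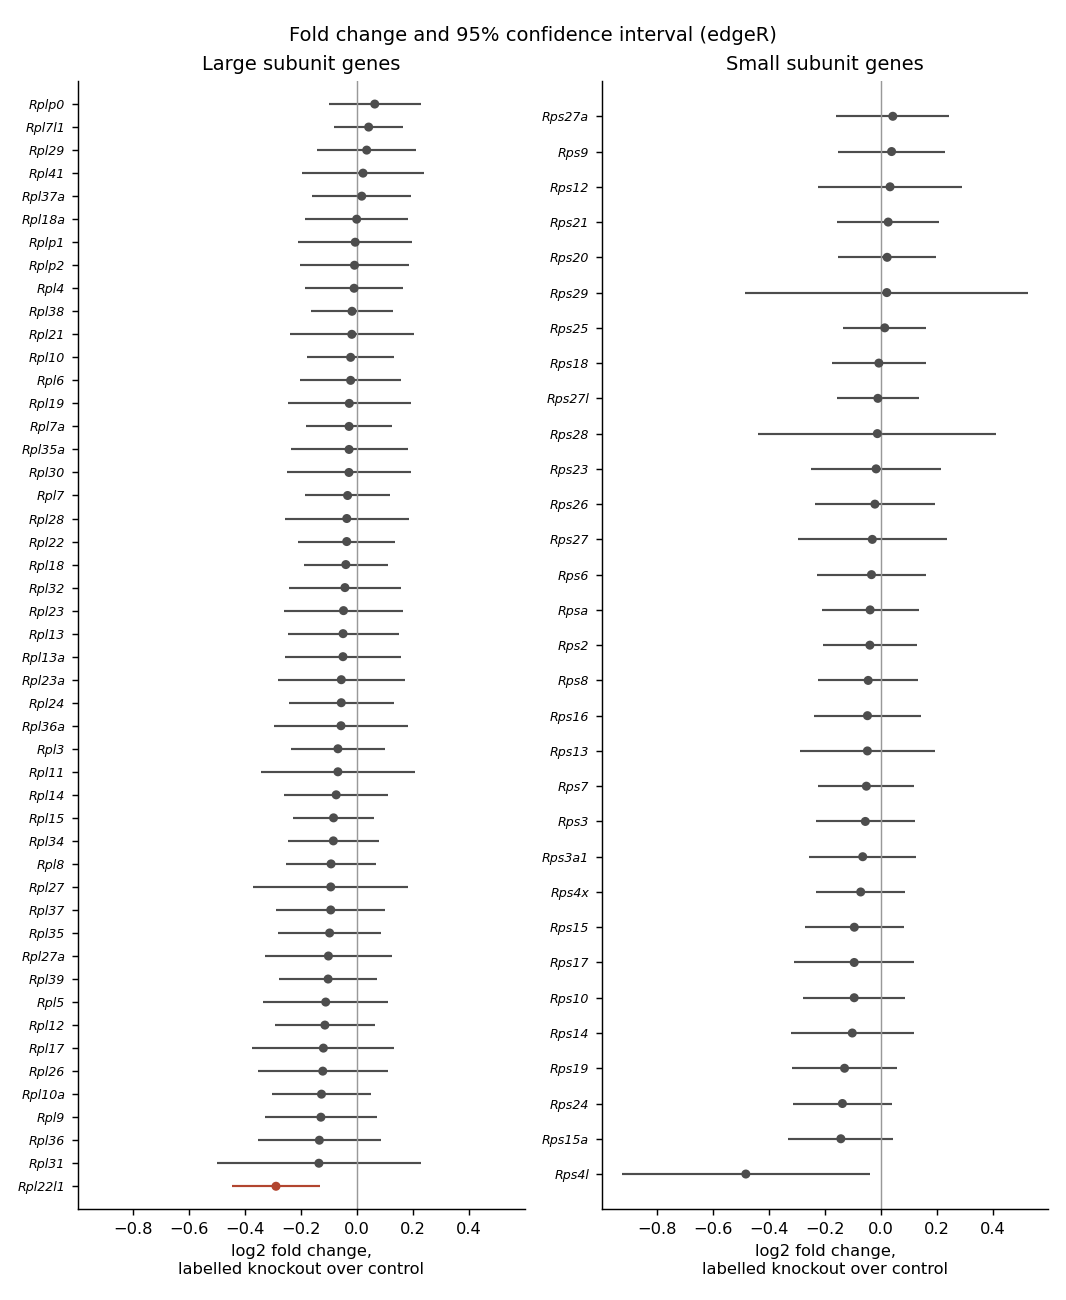
Log2 fold change (x axis, labelled knockout over control) of 79 of the 82 tested ribosomal protein genes. Lines are 95% confidence intervals derived from the edgeR F test. Large subunit genes are at the left and small subunit genes at the right, from the highest to the lowest value. Rpl3l, with 84 reads in all, is among those not drawn. Rpl22l1 (red) is the gene past the threshold at -0.29, Rps4l lies lowest at -0.48, and all others drawn sit between -0.14 and 0.06.

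Rpl22l1 (ENSMUSG00000039221, mm10 chr3:28805436-28807424, plus strand) encodes a large subunit protein that can take the place of Rpl22, an RNA-binding protein needed in mice for the development of alpha-beta T cells and known there to repress the Rpl22l1 mRNA. It was at 99.8, 91.3 and 93.2 CPM in libraries labelled knockout 1 to 3, against 120, 108 and 120 CPM in controls 1 to 3. All 3 libraries labelled knockout lay below all 3 controls, and the lowest control was replicate 2, the female one. The means were 94.8 ± 4.42 and 116 ± 7.12 CPM (SD, n = 3 each), a ratio of 81.9% with a 95% confidence interval of 73.4% to 91.4%. On the log2 scale the change was -0.29 (SE 0.07), and edgeR gave it an adjusted p of 0.0407.

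The call did not hold under several other fits, though the direction did. With a term for sex the log2 fold change of Rpl22l1 was -0.18 (edgeR adjusted p = 0.465), and over the 4 female libraries alone, with a single control among them, -0.19 (adjusted p = 0.435). Leaving out any of the 3 libraries labelled knockout, control 1 or control 3 gave values of -0.26 to -0.33 with adjusted p of 0.0693 to 0.147. Without control 2 the value was -0.33 and the adjusted p 0.0379.

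Rpl22 itself (ENSMUSG00000028936, mm10 chr4:152325742-152334071, plus strand) was at 530, 587 and 503 CPM in libraries labelled knockout, against 569, 532 and 560 CPM in controls. The groups overlapped, with both the highest and the lowest value in libraries labelled knockout, and the log2 fold change was -0.04 (SE 0.08, edgeR adjusted p = 0.816). Its 95% confidence interval ran from -0.21 to 0.14. The fold changes of the 2 genes were not tested against each other.

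The coding sequences of the pair were 70.2% identical over 366 aligned bases with no identical run longer than 26 bases. The following 90 bases of each, from GENCODE M21 transcripts, are the stretch around that run, with capitals at the 20 positions where they differ. They show bases 200 to 289 of the Rpl22 coding sequence on chromosome 4 and bases 182 to 271 of the Rpl22l1 coding sequence on chromosome 3.
Rpl22: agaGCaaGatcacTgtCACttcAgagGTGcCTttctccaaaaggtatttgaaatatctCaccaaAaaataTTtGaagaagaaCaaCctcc
Rpl22l1: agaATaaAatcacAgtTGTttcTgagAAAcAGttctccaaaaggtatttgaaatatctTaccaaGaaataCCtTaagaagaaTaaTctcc
Rpl22l1 took 15.8%, 13.5% and 15.6% of the reads of both genes in libraries labelled knockout, against 17.5%, 16.8% and 17.6% in controls. The groups did not overlap, and the library labelled knockout 2, where Rpl22 was highest, had the lowest share. The mean shares were 14.97% ± 1.31 and 17.3% ± 0.41 (SD, n = 3 each). In library labelled knockout 2 the exact 95% binomial interval, which covers counting error alone, was 12.95% to 13.99%.

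**Figure D2:**
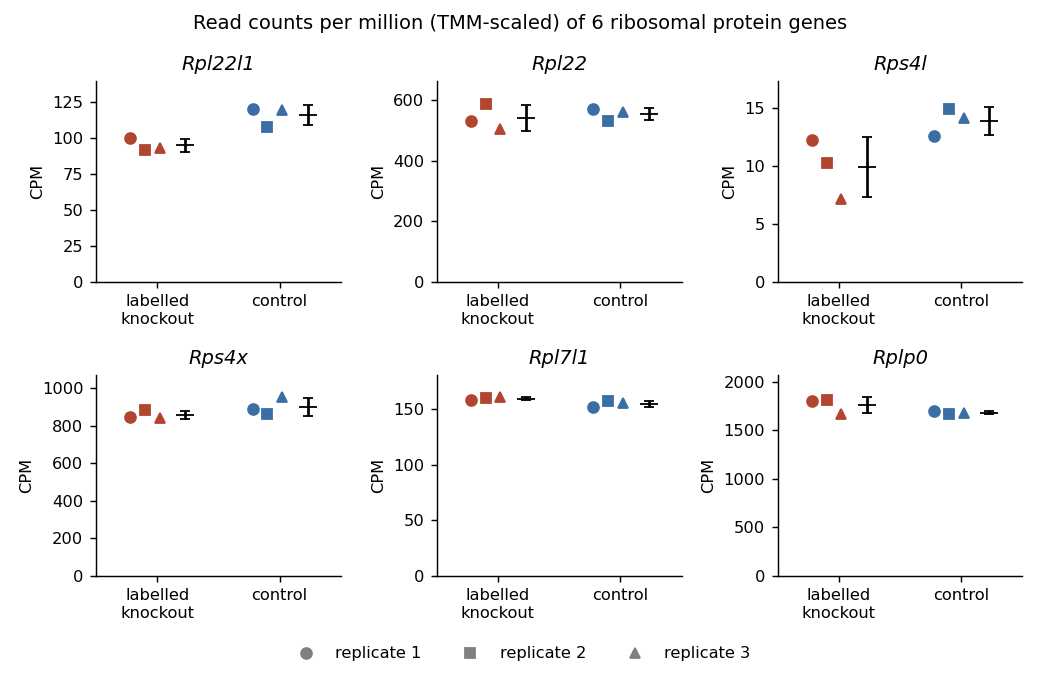
CPM after TMM scaling (y axis, from 0) of 6 ribosomal protein genes in the 3 libraries labelled knockout (red) and the 3 control libraries (blue), with symbols for replicates and black bars for the mean and SD. The groups are apart for Rpl22l1 (91.3 to 99.8 against 108 to 120 CPM), for Rps4l and, by a narrow margin, for Rpl7l1, and overlap for Rpl22, Rps4x and Rplp0.

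Rps4l had the lowest fold change of the tested genes, without passing the test. GENCODE M21 lists it (mm10 chr6:148354656-148355598, plus strand) as a transcribed processed pseudogene, and it was 80.2% identical to the coding sequence of Rps4x over 788 aligned positions. Rps4l was at 12.3, 10.3 and 7.14 CPM in libraries labelled knockout, against 12.6, 14.9 and 14.2 CPM in controls. The groups did not overlap, but library labelled knockout 1 and control 1 lay close together. The log2 fold change was -0.48 with a wide 95% confidence interval of -0.92 to -0.04 (SE 0.19, edgeR adjusted p = 0.164). With a term for sex it was -0.58 (adjusted p = 0.462), and without knockout replicate 3 it was -0.31.

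Rps4x, the X-linked gene for the small subunit protein, was at 847, 882 and 842 CPM in libraries labelled knockout, against 888, 861 and 952 CPM in controls, and the groups overlapped (log2 fold change -0.07, SE 0.07, edgeR adjusted p = 0.579). Rps4l made up 1.43%, 1.15% and 0.841% of the reads of the pair in libraries labelled knockout, against 1.40%, 1.70% and 1.47% in controls. Here the groups overlapped, since library labelled knockout 1 lay above control 1.

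Rpl7l1, a nucleolar relative of Rpl7 that takes part in early assembly of the large subunit, was the gene whose libraries labelled knockout all lay above the controls. It was at 157.8, 159.6 and 160.8 CPM in libraries labelled knockout, against 151.6, 157.2 and 155.3 CPM in controls. The margin between the groups was under 1 CPM, and the log2 fold change was 0.04 (SE 0.05, edgeR adjusted p = 0.675). Rpl7 had a log2 fold change of -0.03 (edgeR adjusted p = 0.807). Rpl7l1 accounted for 16.2% to 16.5% of the reads of the pair in libraries labelled knockout and for 15.1% to 16.4% in controls.

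Rps27l, a paralogue of Rps27 known as a target of p53, was at 93.4 ± 1.31 CPM against 94.0 ± 5.76 CPM in controls (log2 fold change -0.01, edgeR adjusted p = 0.944). Its share of the reads of the pair was 14.5%, 13.3% and 17.1% in libraries labelled knockout, against 14.4%, 14.7% and 14.8% in controls, so the highest and the lowest share both fell in libraries labelled knockout. Rpl36al, an autosomal copy of X-linked Rpl36a whose name lies outside the symbol pattern, took 42.6%, 45.1% and 48.6% of the reads of that pair, against 43.8%, 45.6% and 39.2% in controls. The groups overlapped for both pairs.

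The paralogues known from other tissues were close to absent. Rpl3l, the form of heart and skeletal muscle, was at 0.631 ± 0.408 CPM against 0.768 ± 0.240 CPM in controls, while Rpl3 was at 1030 ± 66.0 against 1079 ± 18.1 CPM. Rpl39l, a form abundant in testis, had 2, 11 and 4 reads in libraries labelled knockout and 0, 5 and 3 in controls, and the 0 of 2731 reads of the pair in control 1 allows a share of up to 0.110% (3 counts of the total). Rpl10l, a testis form that stands in for X-linked Rpl10, had 0 reads in every library, which allows at most 0.0509% of the reads of the pair in the shallowest library. The reads do not show which cells they came from.

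**Figure D3:**
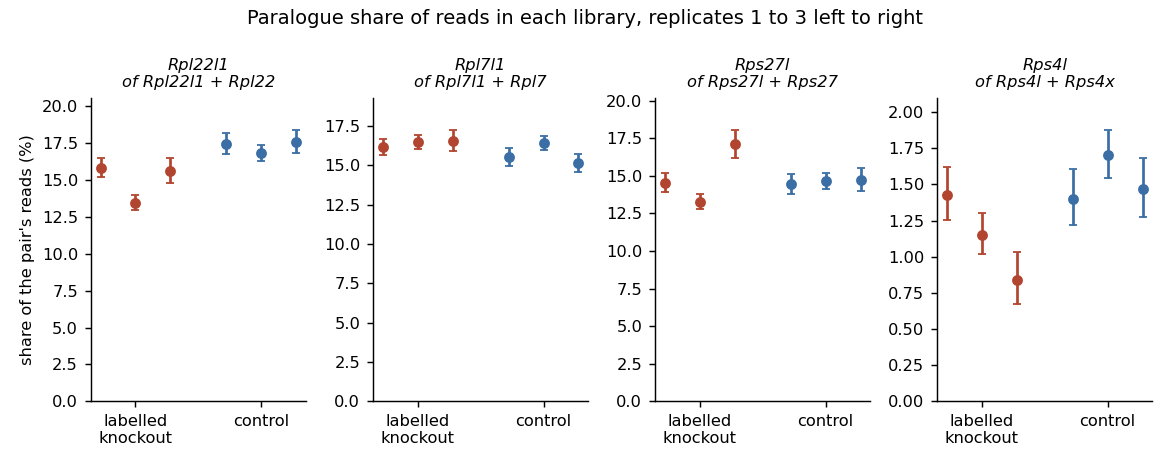
Share of the reads of a pair of paralogues that fell on the paralogue (y axis, per cent, from 0, each panel with its own scale) in libraries labelled knockout (red) and control libraries (blue), replicates 1 to 3 from left to right, with exact 95% binomial intervals that cover counting error alone. The groups are apart for Rpl22l1 (13.5% to 15.8% against 16.8% to 17.6%) and overlap for Rpl7l1, Rps27l and Rps4l.

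Leaving out Rpl22l1, Rps4l, Rpl7l1, Rps27l and Rpl3l, the other 77 tested genes gave 0 calls in either direction by edgeR. Of these 77, 0 had an unadjusted p under 0.05. Over all symbols the shares were 8.42% and 24.9%. The log2 fold changes of the 77 genes ran from -0.14 to 0.06. The lowest among them belonged to Rps15a, at 345, 372 and 309 CPM in libraries labelled knockout against 391, 354 and 387 CPM in controls, to Rps24, and to Rpl31. Rps15a and Rps24 are parts of the small subunit, Rpl31 of the large one near the exit of the peptide tunnel. The 3 log2 fold changes were -0.14, -0.14 and -0.13, with edgeR adjusted p of 0.329, 0.321 and 0.654, and in each the groups overlapped. Without knockout replicate 3 the values were -0.08 for Rps15a, -0.09 for Rps24 and 0.03 for Rpl31, and without knockout replicate 2 Rpl31 was at -0.29. Without control replicate 1 Rpl31 was at -0.04 and without control replicate 3 at -0.22, where Rps24 was at -0.08.

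At the other end stood the stalk protein Rplp0, which with Rplp1 and Rplp2 draws elongation factors to the ribosome. Rplp0 was at 1807, 1809 and 1666 CPM in libraries labelled knockout, against 1705, 1668 and 1677 CPM in controls. Libraries labelled knockout 1 and 2 exceeded all controls, while library labelled knockout 3 lay below all of them, and the log2 fold change was 0.06 (SE 0.07, edgeR adjusted p = 0.629). Rplp1 and Rplp2 had log2 fold changes of -0.01 each. Rps27a, which is made as a fusion with ubiquitin, and Rps9, at the entry of the mRNA channel, had log2 fold changes of 0.04 each. Rpl29 was also at 0.04 and Rps12 at 0.03, and these 4 had edgeR adjusted p of 0.807 to 0.887.

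By subunit, 0 of 33 small subunit genes passed the edgeR threshold, with 1 at an unadjusted p under 0.05, the pseudogene Rps4l. Over all symbols the shares were 8.42% and 24.9%. The median log2 fold change of the small subunit genes was -0.04. Of 49 large subunit genes 1 passed, with 1 at an unadjusted p under 0.05, and the median was -0.05. Small subunit genes took 2.16%, 2.28% and 1.99% of all counts in libraries labelled knockout, against 2.25%, 2.13% and 2.30% in controls. Large subunit genes took 2.86%, 3.04% and 2.62%, against 2.97%, 2.86% and 3.07% in controls. In both subunits the library labelled knockout 3 was lowest, and the groups overlapped.

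Together the 83 genes held 5.02%, 5.31% and 4.61% of all counts in libraries labelled knockout 1 to 3, against 5.22%, 4.99% and 5.37% in controls 1 to 3. The means were 4.98% ± 0.352 and 5.197% ± 0.192 (SD, n = 3 each). The groups overlapped, and the difference of -0.21 percentage points was -0.03 without knockout replicate 3 and -0.38 without knockout replicate 2. The difference was -0.32 points without control replicate 2 and -0.13 without control replicate 3. It was -0.21 as well with the globin genes left out of the total.

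Single libraries stood apart across most of these genes. Taken as the log2 CPM of a gene minus its mean over the 6 libraries, for 80 tested genes other than Rpl3l and Rps4l, library labelled knockout 3 had a median of -0.18 and was the lowest library for 71 of the 80. Library labelled knockout 2 had a median of 0.08 and was the highest for 42. Control 1 had a median of 0.06, and library labelled knockout 1, control 2 and control 3 lay between -0.01 and 0.02. The first principal component of these deviations held 78.9% of their variance, with library labelled knockout 3 at one end (0.84) and library labelled knockout 2 at the other (-0.45). Over all symbols tested, the median deviation of each library lay between -0.01 and 0.01.

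A few genes were far lower than the rest in library labelled knockout 3. Rps29, a small subunit protein with a zinc-binding motif, was at 152, 174 and 88.8 CPM in libraries labelled knockout, against 151, 147 and 112 CPM in controls. Its log2 deviation in library labelled knockout 3 was -0.59, with -0.26 in control 3, the other library in which it was low. Rps28 deviated there by -0.52, Rpl31 by -0.45, Rpl27 by -0.33 and Rpl17 and Rpl11 by -0.32 each. Transcript lengths here are those of the annotation, which need not be those of the mRNAs in these cells. Over the 20 genes with the shortest transcripts (271 to 517 bases) the median deviation in library labelled knockout 3 was -0.18, against -0.12 in the 20 with the longest (977 to 3706 bases). That library was also the shallowest, at 12408966 reads, and had the highest sums of erythroblast markers (214 CPM) and macrophage markers (3040 CPM), and the part of depth or of other cells in its low values was not tested.

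**Figure D4:**
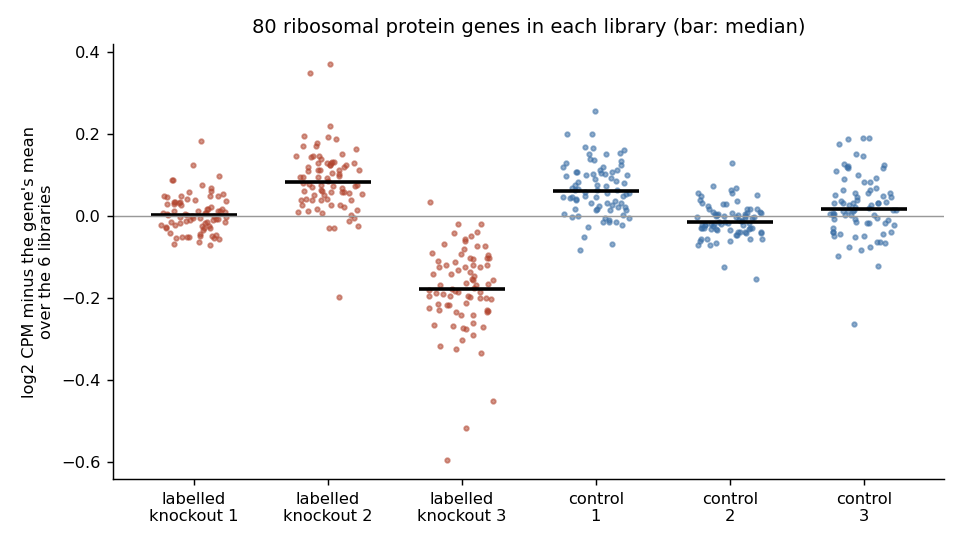
Log2 CPM minus the mean of the gene over the 6 libraries (y axis) for 80 ribosomal protein genes in each library (x axis, labelled knockout in red, control in blue); each point is a gene and black bars are medians. Library labelled knockout 3 sits lowest with a median of -0.18 and library labelled knockout 2 highest with 0.08, so the spread inside the group labelled knockout spans the controls.

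Levels of different genes were compared per length, as CPM per kilobase of the union of a gene's annotated exons. The highest was the stalk gene Rplp1, at 2269 ± 203 against 2278 ± 140 CPM per kilobase in controls (SD, n = 3 each). Also among the highest was Rpl13a, which serves in translational control in inflammation too, at 1794 ± 113 against 1856 ± 165 CPM per kilobase in controls. Rpl4, which lines the peptide exit tunnel, was at 1602 ± 94.4 against 1612 ± 19.9 CPM per kilobase in controls, and Rpl8, near the peptidyl transferase centre, at 1534 ± 35.5 against 1635 ± 59.8. The means of Rpl4 and Rpl8 differed by less than the larger of their SDs in each group.

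Among the lowest were Rpl15 (118 against 125 in controls), Rps28 (92.6 against 93.9), Rps15a (63.4 against 70.0), Rpl7l1 (50.8 against 49.3), Rps4l (10.5 against 14.7) and Rpl3l (0.395 against 0.481 CPM per kilobase). Low values can follow from the length chosen. Over the shortest principal transcript in place of the union of exons, Rps15a was at 534 against 590 in controls and Rpl15 at 327 against 347 CPM per kilobase. The ranks by the 2 lengths had a Spearman rho of 0.858 over 82 genes, with 4 of the top 6 and 3 of the bottom 6 in common. Outside the paralogues the highest level was 34.1 times the lowest by union of exons (Rplp1 over Rps15a) and 16.1 times by transcript (Rplp1 over Rpl5).

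**Figure D5:**
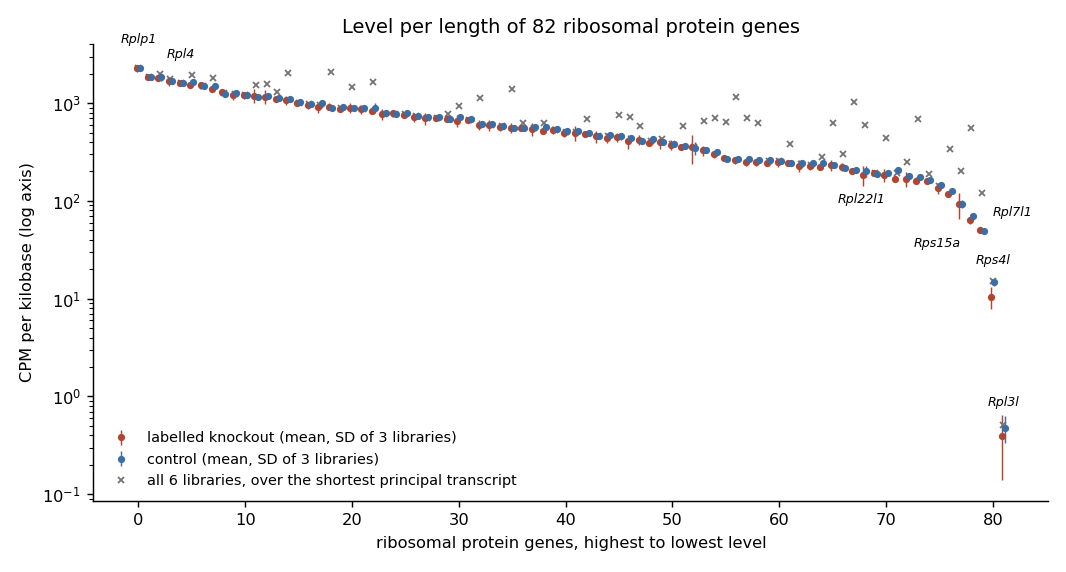
Level per length of 82 ribosomal protein genes in CPM per kilobase of union exon (y axis, log scale), ranked from highest to lowest (x axis), as mean and SD of 3 libraries labelled knockout (red) and 3 control libraries (blue), with grey crosses for the mean of all 6 libraries over the shortest principal transcript. Rplp1 leads at about 2269 and 2278, and the crosses of Rps15a and others lie far above their points. On the log axis the groups lie close together for most genes, with Rps4l at 10.5 against 14.7 in controls.

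The 4 tested genes on the X chromosome had all negative log2 fold changes, from -0.10 to -0.02, as had 65 of the 78 autosomal ones (83.3%). Of the 4, 0 passed the edgeR test or had an unadjusted p under 0.05. Over all symbols the shares were 8.42% and 24.9%, at which 4 genes can give 0. Rpl39, which lines the exit tunnel, was at -0.10 (edgeR adjusted p = 0.454), Rps4x at -0.07, Rpl36a at -0.06 and Rpl10, which joins late in assembly, at -0.02. With a term for sex Rpl39 was at 0.01. Of 21 tested genes in which mutations are linked to Diamond-Blackfan anaemia, 0 passed and 0 had an unadjusted p under 0.05, with a median log2 fold change of -0.09 and values of -0.14 to 0.02. Among them Rpl15 was at 268, 275 and 245 CPM in libraries labelled knockout, against 281, 277 and 276 CPM in controls. All 3 libraries labelled knockout lay below the controls, at a log2 fold change of -0.08 (SE 0.06, edgeR adjusted p = 0.468).

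Other genes tied to the ribosome were counted from lists. Of 22 tested genes of the translation machinery, most with a terminal oligopyrimidine tract, 0 passed the edgeR threshold, against 8.42% of all symbols. Of these 22, 0 had an unadjusted p under 0.05, against 24.9% of all symbols, and their median log2 fold change was -0.03. Those with the smallest p were Eif4b, a helper of the cap-binding helicase, at 820 ± 12.2 against 897 ± 28.5 CPM in controls, and Hnrnpa1, an RNA-binding protein, at 583 ± 15.6 against 649 ± 58.2 CPM (log2 fold changes -0.13 and -0.16, edgeR adjusted p = 0.259 and 0.263). Of 4 genes for ribosomal proteins whose names lie outside the pattern, 0 passed and 0 had an unadjusted p under 0.05. Fau, a fusion of a ubiquitin-like protein with a small subunit protein, had a log2 fold change of 0.12, Rpl36al of 0.07 and Gnb2l1 (Rack1) of -0.05.

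Of 8 tested host genes of small nucleolar RNAs, 0 passed, against 8.42% of all symbols, and 8 genes can give 0 at that share. At an unadjusted p under 0.05 there was 1, against 24.9% of all symbols. This was Snhg8, at 54.6, 64.2 and 58.9 CPM in libraries labelled knockout against 77.0, 65.4 and 72.3 CPM in controls, which did not overlap (log2 fold change -0.27, SE 0.09, edgeR adjusted p = 0.0924). Snhg12 was at -0.14 (adjusted p = 0.293). The median of the 8 was -0.09.

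Of 19 genes that regulate the translation of these mRNAs, 1 was lower and 0 higher (5.26%, against 8.42% of all symbols), and 6 had an unadjusted p under 0.05 (against 24.9% of all symbols). Tia1, which binds such mRNAs under stress, was at 106, 111 and 111 CPM in libraries labelled knockout, against 138, 125 and 138 CPM in controls, without overlap (edgeR adjusted p = 0.0309, log2 fold change -0.29, SE 0.06). The median of the 19 was -0.02. Of 19 chaperones, importers and assembly factors of ribosomal proteins, 1 was lower and 0 higher, the same 5.26%, and 3 had an unadjusted p under 0.05. Ipo9, an importin that carries ribosomal proteins and histones into the nucleus, was at 124, 130 and 130 CPM against 155, 150 and 148 CPM in controls, without overlap (edgeR adjusted p = 0.0374, log2 fold change -0.24, SE 0.06). The median of these 19 was -0.08. Both calls were lost with a term for sex, at adjusted p of 0.399 for Tia1 and 0.338 for Ipo9, and without any of the libraries labelled knockout or control 1, as was Tia1's without control 3 and Ipo9's without control 2.

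Free Rpl5 and Rpl11, bound to 5S ribosomal RNA, can hold back Mdm2 and so raise p53. Rpl5 was at 284, 310 and 240 CPM in libraries labelled knockout, against 322, 292 and 288 CPM in controls, and Rpl11 at 418, 478 and 335 CPM against 460, 414 and 416 CPM. The groups overlapped for both, and library labelled knockout 3 was lowest for both. Their log2 fold changes were -0.11 and -0.07 (edgeR adjusted p = 0.530 and 0.778). Of 10 tested genes of Mdm2, p53 and its targets 0 passed and 3 had an unadjusted p under 0.05, a share near the 24.9% of all symbols. Zmat3 was at 8.60 ± 1.24 against 5.18 ± 1.2 CPM in controls and Phlda3 at 2.18 ± 0.427 against 3.92 ± 0.663 CPM, with log2 fold changes of 0.74 and -0.82 (edgeR adjusted p = 0.0732 and 0.0851). Mdm2, Trp53 and Cdkn1a had log2 fold changes of 0.11, -0.06 and 0.25.

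Near-identical copies limit what the counts of these genes measure. Of the 83 genes, 66 had at least 1 other annotated transcript at 95% identity or more over at least 50% of their length, with a median of 6 over those 66 and up to 56 for Rpl21. For some of these the table held nearly the same counts at both places. The pseudogene Gm15772 repeated the counts of Rpl26 exactly in all 6 libraries. Rpl34-ps1 held 98.4% to 99.2% as many reads as Rpl34, Gm12191 99.6% to 99.8% as many as Rpl30, and Rps27rt 99.6% to 99.8% as many as Rps27. Others held less, such as BC004004, at 11.6% to 15.1% of the reads of Rpl21, and Rpl14-ps1, at 6.38% to 7.33% of those of Rpl14. Gm15421, a copy of Rpl22l1, held 0.43% to 0.9% as many reads as that gene.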

How the data were processed

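The authors deposited raw read counts per gene symbol for 6 libraries, whole numbers with no normalization. Per the labels' protocols, poly(A) RNA went into a directional kit, and the submitters' processing notes name STAR and mm10. The version, counter, gene annotation, strand setting and handling of reads that match several places: not given in the sources used here. Totals ran from 12408966 to 28185678 reads.

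All 24063 symbols entered a single fit with edgeR 4.0.16 in R 4.3.3: 13679 symbols passed filterByExpr (minimum count 10, minimum total 15), followed by TMM scaling and the quasi-likelihood F test on group alone. P-values were adjusted by Benjamini-Hochberg over all 13679, with a threshold of 0.05. CPM and fold changes follow TMM scaling. Groups come from the genotype labels, and sex was read from Xist and Y-linked genes. No library repeated another within sampling noise (chi-square of at least 10.2 per degree of freedom between replicates). Intervals are at 95%. The SE of a log2 fold change was taken as its size over the square root of the F statistic. Its interval used the t distribution with the degrees of freedom of that test. Shares of counts and their intervals cover counting error alone.

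Positions, exon and transcript lengths and coding sequences are from GENCODE mouse release M21 (GRCm38), which had the name of 22779 symbols and a synonym of 866, leaving 418 without a single match. Promoter sequences are from RefSeq (GRCm38.p6).

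The genes and lists were chosen with earlier results of these data known. Named genes are Arid2; members past the threshold; the 6 highest and 6 lowest fold changes; paralogue pairs; the 6 highest and 6 lowest levels per length; X-linked members; and, per list, members past the threshold or else the 2 with the smallest p. A few genes covered by these rules are not reported here. Other named genes were chosen after their values were seen. On simulated counts for this comparison (13542 genes tested), the fit recovered 79.4% of genes changed 2-fold and 98% of those changed 4-fold, with 15 false calls among 190. Those counts were drawn gene by gene, with no effect of sex or of other cells and no shift shared by genes within a library. Changes smaller than 2-fold were not simulated, so these rates need not hold for the genes described here. Alternatives were DESeq2 1.42.0, limma-voom (limma 3.58.1), other scalings and filters, a sex term, female libraries alone, replicate number as a block, a threshold of 0.1 and each library left out in turn.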

Additional observations from a re-analysis of the deposited data

How the results depend on the processing

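The count of ribosomal protein genes past the threshold was 1, and it was 0 with a sex term, 0 over the female libraries alone, and 0 to 1 when single libraries were left out: 1 without control replicate 2 and 0 without any of the other 5. It was 1 under DESeq2 size factors, upper-quartile scaling, TMM factors without these genes, both other filters, DESeq2, limma-voom and a threshold of 0.1. The adjusted p of Rpl22l1 ran from 0.0152 to 0.465 over the alternatives that refit the table, always with a negative log2 fold change of -0.18 to -0.33. The median log2 fold change of these genes lay between -0.07 and -0.01 except when a library was left out, where it ran from -0.11 to 0.02. Under upper-quartile scaling the median of all symbols was -0.02. The difference in the share of counts ran from -0.38 to -0.03 percentage points when single libraries were left out, and that in the share of Rpl22l1 in its pair from -2.74 to -1.55 points.

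Over all symbols, 1152 were called, against 43 with a sex term, 39 over the female libraries alone, 290 to 984 without single libraries and 1636 by DESeq2. With no filter on low counts 1584 of 19971 symbols were called.

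With the replicate number as a block, 1 ribosomal protein gene was called (Rpl22l1, adjusted p = 0.0152), and 2172 symbols in all. Deviations of same-numbered libraries correlated at 0.29, -0.01 and 0.34 for numbers 1 to 3, and not every pair passed 0.1, so the numbers were not taken to pair the libraries.

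For the 41 named genes with values, Rpl22l1 included, 21 calls were lost and 4 were gained over the alternatives, and 61 values of genes that did not pass changed sign. Depth limited Rpl3l (84 reads) and Rpl39l (25 reads), whose differences were not detectable. With 1 female control, sex and group can hardly be told apart.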
